A study of Homo sapiens with 8 samples.

Results

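The genes described here are the 7 CDK inhibitor genes of the human genome, 3 of the CIP/KIP family (CDKN1A, CDKN1B and CDKN1C) and 4 of the INK4 family (CDKN2A, CDKN2B, CDKN2C and CDKN2D). They were chosen by name, from the transcript to which each probe was designed, out of 20292 genes named on the array, and all 7 were found, on 9 probes. CDKN1B and CDKN2A had 2 probes each and the other genes 1. Each gene is represented by its brightest probe, averaged over all arrays, and the other probes of CDKN1B and CDKN2A are given beside it. A probe counted as well above background where the scanner software marked most of its spots so. By this mark 6 of the 7 genes were seen on at least 1 array, and CDKN2B on none.

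The samples were MCF10A p53+/+ cells and MCF10A p53-/- cells. MCF10A is a non-tumorigenic line of human mammary epithelial cells, and the sources used here do not say whether the p53-/- cells are 1 clone. Cells of each genotype were left untreated (0 h), or received doxorubicin, also called adriamycin (ADR), a drug that breaks DNA, for 2 h and were harvested 12, 24 or 48 h later. The sample labels give 0.5 µg/ml of ADR, while the methods of the study give another dose. Total RNA of each of the 8 conditions was hybridised in a single colour to 1 Agilent SurePrint G3 Human GE array, so there are no replicates, and precision is limited by how few arrays there are.

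CDK inhibitors are small proteins that bind cyclin-dependent kinases or their complexes with cyclins. Members of the CIP/KIP family bind several cyclin–kinase complexes, above all those of CDK2, while INK4 proteins bind CDK4 and CDK6 and keep D-type cyclins off them. Less kinase activity leaves the pocket proteins, RB1 and its relatives, in the form that holds E2F factors in check, and cells then stop before S phase. CDKN1A, which encodes p21, is the best known target of p53 and is required for much of the G1 arrest after DNA damage.

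Values are given as log2 levels, that is, the log2 ratio of a probe's processed signal to the 75th percentile of its array. The error given with a single array is a technical SD. It was estimated at each signal level on the 999 probes that had 10 spots apiece and divided by the square root of the number of spots. It covers the difference between spots of 1 array only. The genotypes were compared over the 6 treated arrays, in which the time points stand in for replicates, with limma across 28947 probes. Its p-values set the difference against the movement over time. At a single time point a difference of at least 2-fold was called higher or lower, with no test.

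The array labelled p53+/+ 0 h read closer to the p53-/- arrays than to the other p53+/+ arrays. Its closest array was p53-/- 12 h, with 6.11% of probes at least 2-fold apart, against 10.1% from p53-/- 0 h and 22.2% from p53+/+ 12 h. Of 14 p53 target genes, including MDM2, FDXR, BAX and GDF15, all 14 were higher on every treated p53+/+ array than on every p53-/- array. Among all probes, 25.1% were higher on every treated p53+/+ array than on every treated p53-/- array, a share that leaves p53-/- 0 h out. On the array labelled p53+/+ 0 h all 14 lay nearer the p53-/- mean, 10 of them inside the p53-/- range, but p53 induces these genes after damage, so low levels before ADR are no check of that label. The comparisons below rest on the treated arrays, and changes of the called genes from 0 h in p53+/+ cells are given against both this array and p53-/- 0 h.

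The genotypes also differed in other ways. On the p53+/+ 48 h array 0 of 10 spike-in transcripts were well above background, against 6 on each of the other arrays. Basal keratins (KRT5, KRT14 and KRT17) were well above background on all 8 arrays, TP63 on 3. Of 7 basal markers, 5 were called higher in treated p53+/+ cells, where 10.6% of all probes were, among them CDH1, the E-cadherin gene, by 3.98 on the log2 scale (SE 0.58, limma adjusted p = 0.0069), and the summed signal of the list was 160 to 206 times the 75th percentile on treated p53+/+ arrays and 40.8 to 59.7 times on treated p53-/- arrays. Of 5 markers of other cell types, DCN, PECAM1 and COL1A1 were called lower in treated p53+/+ cells (7.4% of all probes were), PTPRC differed by -0.01 (limma adjusted p = 0.98), and COL1A2 was not well above background on any array. Their summed signal was 4.39 to 5.31 times the 75th percentile on treated p53+/+ arrays and 52.3 to 67.4 times on treated p53-/- arrays, nearly all of it from DCN, at log2 levels of 2.09 to 2.37 and 5.70 to 6.07, while the other 4 markers lay below -1.5 on every array. Of 4 luminal markers none was called, PGR was not well above background on any array, and the summed signal was 65.9 to 94.0 times on treated p53+/+ and 38.9 to 63.8 times on treated p53-/- arrays. The array labelled p53+/+ 0 h was near p53-/- 0 h for the markers of other cells (54.3 and 58.3 times) and the luminal markers (39.5 and 40.2 times), while for the basal markers, at 69.0 times, it was above every p53-/- array and below every treated p53+/+ array. The part of these differences in the results below was not tested. Each genotype also lay in its own column of the slide, and the 2 cannot be told apart.

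After ADR, CDKN1A mRNA was higher in p53+/+ than in p53-/- cells, while CDKN1C, CDKN2C and CDKN2D were lower, each on every treated array. CDKN1A was 9.93-fold higher, CDKN1C 11.9-fold lower, CDKN2C 7.33-fold lower and CDKN2D 2.57-fold lower over the 3 time points. CDKN1B and CDKN2A were not called, with differences of -0.42 and 0.34 on the log2 scale, and CDKN2B was not measured above background. Of the 6 genes tested, 1 was thus called higher, where 10.6% of all probes were, and 3 lower, where 7.4% of all probes were. The split over all probes was 3058 higher and 2143 lower, which became 2470 and 2645 with quantile normalization, 2254 and 2683 with median scaling, and 1365 and 8028 without scaling. The treated arrays of the 2 genotypes did not overlap for 5 of the 6 genes, against 41.4% of all probes, 2 with p53+/+ higher (25.1% of all probes) and 3 with p53+/+ lower (16.4%). Among them, CDKN2A was separated by a gap of only 0.004 on the log2 scale, within its technical SD of 0.10. The median difference of the 6 genes was -0.89, beside 0.09 over all probes. In a fit with the time point as a block, which pairs the genotypes by time, CDKN1A (limma adjusted p = 0.0045) and CDKN1C (0.029) were called. CDKN2C (0.0592) and CDKN2D (0.054) were not, and 4451 of all probes were called in that fit.

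**Figure D1:**
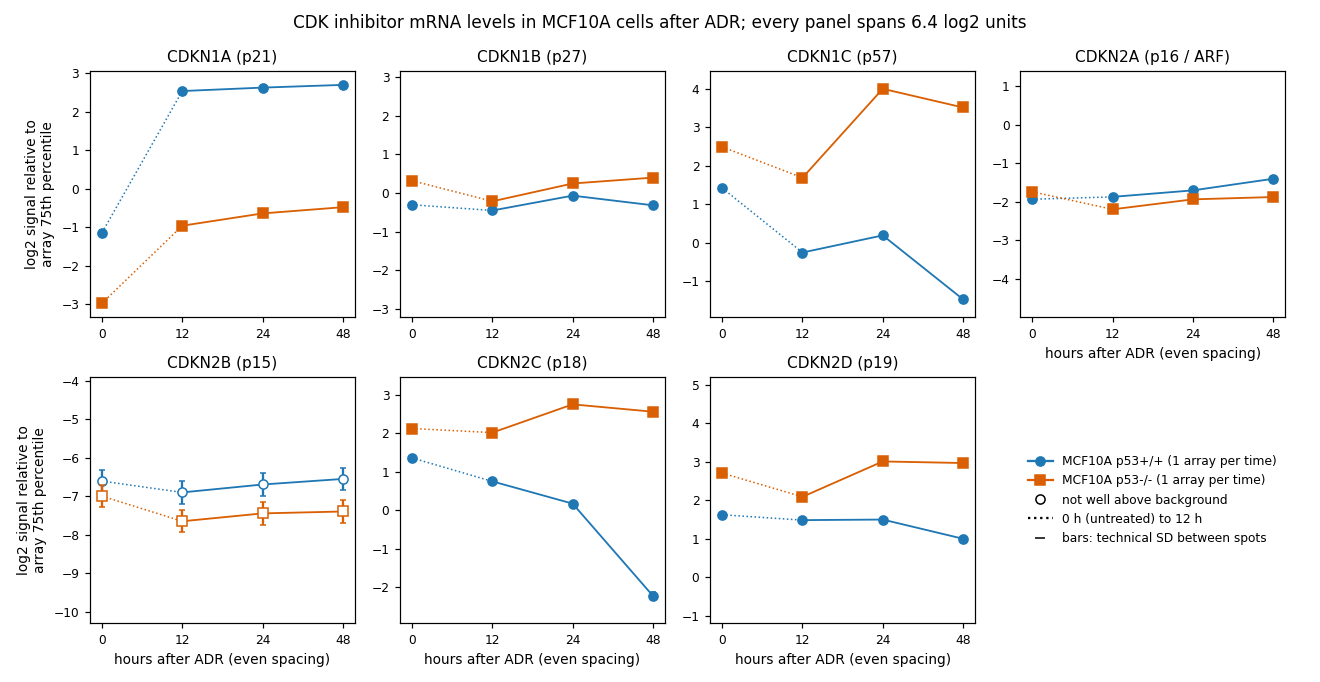
Log2 level of each CDK inhibitor gene (y axis, log2 processed signal relative to the 75th percentile of the array) at 0, 12, 24 and 48 h after ADR (x axis, evenly spaced). Circles are p53+/+ and squares p53-/- arrays, 1 per point, open where the probe was not well above background, bars are the technical SD, and dotted lines lead from the untreated arrays. CDKN1A lies between 2.54 and 2.70 on treated p53+/+ arrays and between -0.96 and -0.48 on treated p53-/- arrays, while CDKN1C, CDKN2C and CDKN2D are lower on every treated p53+/+ array, and every CDKN2B point is open.

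At 12 h 1 gene was at least 2-fold higher in p53+/+ cells, where 12.3% of all probes were, and CDKN1C and CDKN2C were at least 2-fold lower, where 8.3% were. At 24 h CDKN1A was again higher (11.9% of all probes) and CDKN1C, CDKN2C and CDKN2D were lower (13%). At 48 h the called genes were the same 4 (16.3% of all probes higher and 13.5% lower). The difference of CDKN1A moved little, from 3.50 at 12 h to 3.27 at 24 h and 3.17 at 48 h, with a technical SD of 0.07 each. Those of the 3 lower genes widened at each step. CDKN1C differed by -1.94, -3.80 and -4.98, CDKN2C by -1.27, -2.58 and -4.78, and CDKN2D by -0.61, -1.51 and -1.97 at 12, 24 and 48 h, with technical SDs of 0.11 or less.

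**Figure D2:**
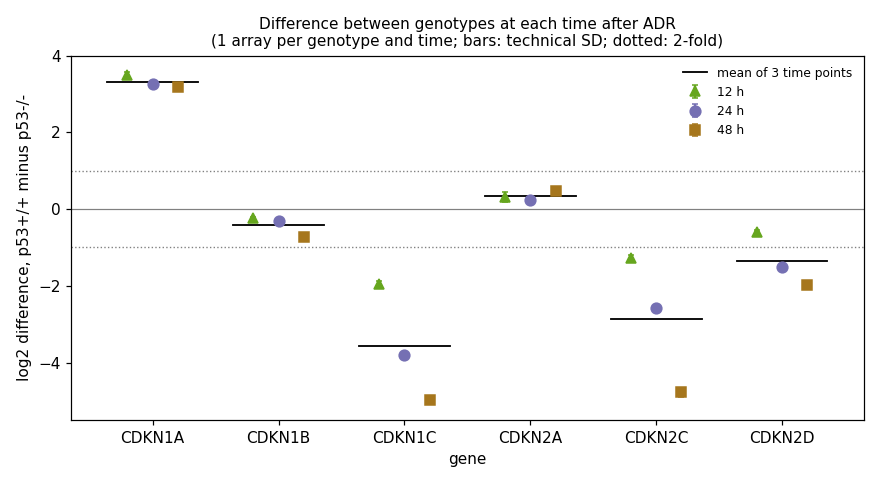
Log2 difference between p53+/+ and p53-/- cells (y axis) for the 6 CDK inhibitor genes measured above background (x axis) at 12 h (triangles), 24 h (circles) and 48 h (squares) after ADR, with 1 array per genotype and time. Black lines are the means of the 3 time points, bars the technical SD and dotted lines 2-fold. CDKN1A stays between 3.17 and 3.50, and the differences of CDKN1C, CDKN2C and CDKN2D reach -4.98, -4.78 and -1.97 at 48 h.

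CDKN1A encodes p21, which binds cyclin–CDK2 complexes and the DNA polymerase clamp PCNA. Its log2 level in p53+/+ cells was -1.14 at 0 h, 2.54 at 12 h, 2.63 at 24 h and 2.70 at 48 h. In cells without p53 the same times gave -2.97, -0.96, -0.64 and -0.48. All 3 treated p53+/+ arrays were thus high and neighbours among them differed by less than 2 technical SDs, the treated p53-/- arrays came next after a gap of 3.01, and p53-/- 0 h was the lowest. The difference over the treated arrays was 3.31 on the log2 scale (SE 0.20, limma adjusted p = 0.00045).

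CDKN1A was also more than 2-fold higher after ADR in cells without p53 when set against p53-/- 0 h. Against p53-/- 0 h its level was 4.03-fold higher at 12 h, 5.03-fold at 24 h and 5.63-fold at 48 h in p53-/- cells, a log2 change of 2.01, 2.33 and 2.49 with a technical SD of 0.12 each. Against the mean of both 0 h arrays the same p53-/- arrays were 2.14-, 2.67- and 2.98-fold higher. In p53+/+ cells the rise over the array of the same label at 0 h was 12.8-, 13.6- and 14.3-fold. Against p53-/- 0 h the same p53+/+ arrays were 45.5-, 48.4- and 50.8-fold higher. The array labelled p53+/+ 0 h, at -1.14, was 0.18 below p53-/- 12 h and 1.83 above p53-/- 0 h. The treated p53-/- arrays, at -0.96, -0.64 and -0.48, were each less than 2-fold above that array. Whether the rise in p53-/- cells passes the 2-fold rule thus depends on which 0 h array is used.

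The promoter window of CDKN1A, from RefSeq on GRCh38.p14, is shown because this gene alone of the 7 was called higher. It spans 250 bases before and 50 after the start of the gene, at chr6:36678464-36678763 on the plus strand, and is written 5′ to 3′ with matches to the searched motifs in capitals. The motifs, searched on both strands, were the GC box GGGCGG, the E2F-type motif GCGGGAA, the CHR motif TTTGAA, the CCAAT box CCAAT, the TATA box TATAAA and the p53 half-site.
CDKN1A: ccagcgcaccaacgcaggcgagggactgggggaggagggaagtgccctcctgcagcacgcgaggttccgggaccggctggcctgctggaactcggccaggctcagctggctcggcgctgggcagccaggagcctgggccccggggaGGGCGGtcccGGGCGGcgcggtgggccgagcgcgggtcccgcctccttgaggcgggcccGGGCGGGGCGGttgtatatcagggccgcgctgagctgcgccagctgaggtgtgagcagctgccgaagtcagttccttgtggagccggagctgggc
It held 4 GC boxes, the last 2 of which overlap, and no other motif searched. A GC box was present in 45% of all 35116 promoter windows, an E2F-type motif in 6.55%, a CHR motif in 15.2%, a CCAAT box in 34.6%, a TATA box in 11.5% and a p53 half-site in 6.63%. A window of this length ends well short of distant sites, and a missing match says only that these letters are not in it.

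CDKN1B encodes p27, which restrains CDK2 in resting cells and is mostly set by protein turnover. On its 10-spot probe p53+/+ cells read -0.31, -0.45, -0.07 and -0.32 at 0, 12, 24 and 48 h. The p53-/- cells read 0.32, -0.22, 0.25 and 0.40. The genotypes overlapped after ADR, since p53-/- 12 h lay below p53+/+ 24 h. The difference was -0.42 (SE 0.23, limma adjusted p = 0.25), and on the second probe, of 1 spot, -0.32 (SE 0.25, limma adjusted p = 0.43). Its whole range over the 8 arrays was 1.81-fold. Without scaling of the arrays, which moved the median difference of all probes from 0.09 to -0.51, CDKN1B was called lower in p53+/+ cells (-1.02, limma adjusted p = 0.029).

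CDKN1C encodes p57, an imprinted inhibitor of cyclin–CDK2 complexes known for its role in development and in the exit from the cell cycle. Levels in p53+/+ cells were 1.42 at 0 h, -0.25 at 12 h, 0.19 at 24 h and -1.47 at 48 h. Those in p53-/- cells were 2.49, 1.69, 3.997 and 3.51. Every treated p53-/- array was above every p53+/+ array, the untreated one included. The difference over the treated arrays was -3.57 (SE 0.69, limma adjusted p = 0.017). It kept its direction but missed the threshold without the 24 h arrays (adjusted p = 0.13) or without the 48 h arrays (adjusted p = 0.0995), which leave 2 arrays per genotype.

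The difference between the genotypes in CDKN1C widened from 12 to 48 h, though neither genotype moved steadily. For this gene the test of the interaction, given below, did not pass. In p53-/- cells CDKN1C was 1.74-fold lower at 12 h than at 0 h, then 2.84-fold higher at 24 h and 2.03-fold higher at 48 h. In p53+/+ cells the gene was 3.19-, 2.34- and 7.40-fold lower at 12, 24 and 48 h than on the array labelled 0 h, and 6.69-, 4.91- and 15.5-fold lower than p53-/- 0 h. Without any 0 h array, it fell by 1.21 from 12 to 48 h in p53+/+ cells and was 1.82 higher at 48 h than at 12 h in p53-/- cells, on the log2 scale. All neighbours in the order of the 8 arrays differed by more than 2 technical SDs. No promoter window of CDKN1C was in the table used.

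CDKN2C encodes p18INK4c, an inhibitor of CDK6 and CDK4. Its levels in p53+/+ cells were 1.35, 0.75, 0.17 and -2.22 for 0, 12, 24 and 48 h. The p53-/- cells gave 2.12, 2.01, 2.75 and 2.56. All 4 p53-/- arrays were high and lay within 0.73, and the p53+/+ 48 h array was the lowest of the 8, 5.25-fold below p53+/+ 24 h. The difference over the treated arrays was -2.87 (SE 0.74, limma adjusted p = 0.043), close to the threshold. With the time point as a block the adjusted p was 0.0592, without the 12 h arrays 0.061 and without the 24 h arrays 0.23, whereas without the 48 h arrays the difference was -1.92 and still called (adjusted p = 0.049).

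In p53+/+ cells after ADR the level of CDKN2C changed by -0.58 from 12 to 24 h, under the 2-fold rule, and by -2.39 from 24 to 48 h, past it, on the log2 scale. By 48 h its level was 11.9-fold lower than on the array labelled p53+/+ 0 h and 20.3-fold lower than on p53-/- 0 h. In p53-/- cells no time point was 2-fold from 0 h, with changes of -0.11, 0.63 and 0.44. The array labelled p53+/+ 0 h read 0.76 below p53-/- 0 h.

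CDKN2D encodes p19INK4d, which also binds CDK4 and CDK6. Over the 4 times p53+/+ cells had levels of 1.63, 1.49, 1.501 and 1.003. For p53-/- cells they were 2.71, 2.09, 3.01 and 2.97. The 4 p53-/- arrays were above all 4 p53+/+ arrays. The difference over the treated arrays was -1.36 (SE 0.31, limma adjusted p = 0.028), and it was past the threshold in neither the fit with the time point as a block (adjusted p = 0.054) nor the fits without the 24 h arrays (0.21), without the 48 h arrays (0.15) or without the p53+/+ 48 h array alone (0.070).
In p53+/+ cells CDKN2D was 1.10-, 1.09- and 1.54-fold lower at 12, 24 and 48 h than on the array labelled 0 h, under the 2-fold rule. Against p53-/- 0 h the same arrays were 2.33-, 2.31- and 3.26-fold lower, past the rule. In p53-/- cells its changes from 0 h were -0.62, 0.30 and 0.26 on the log2 scale, so here the call depends on which 0 h array is used.

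Promoter windows of CDKN2C and CDKN2D are shown because both INK4 genes were called lower, with motif matches in capitals as above. For CDKN2C, the one of its 3 windows with most matches is given, at chr1:50968456-50968755 on the plus strand. That of CDKN2D lies at chr19:10568930-10569229 on the minus strand.
CDKN2C: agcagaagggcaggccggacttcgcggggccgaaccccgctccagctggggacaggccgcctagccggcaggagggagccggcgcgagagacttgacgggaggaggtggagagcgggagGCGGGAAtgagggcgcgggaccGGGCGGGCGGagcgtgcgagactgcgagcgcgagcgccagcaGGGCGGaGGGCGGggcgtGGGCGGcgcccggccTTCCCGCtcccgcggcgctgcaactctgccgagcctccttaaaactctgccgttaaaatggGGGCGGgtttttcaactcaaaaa
CDKN2D: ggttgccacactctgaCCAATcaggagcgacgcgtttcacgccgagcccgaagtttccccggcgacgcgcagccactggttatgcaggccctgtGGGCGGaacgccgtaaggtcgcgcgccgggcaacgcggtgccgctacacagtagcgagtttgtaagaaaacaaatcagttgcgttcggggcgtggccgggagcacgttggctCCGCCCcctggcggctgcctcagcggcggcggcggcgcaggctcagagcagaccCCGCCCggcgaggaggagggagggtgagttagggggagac
The CDKN2C window held 6 GC boxes, the first 2 of which overlap, and 2 E2F-type motifs, 1 on each strand. Of the 9 windows of the 6 genes in the table it was the only one with an E2F-type motif, beside the 6.55% of all windows given above. CDKN2D held 3 GC boxes and 1 CCAAT box. None of the 9 windows held a CHR motif, a TATA box or a p53 half-site. These matches are letters in a sequence, and binding was not measured here.

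CDKN2A encodes both p16INK4A and, in another reading frame, ARF, which protects p53 from MDM2. Its neighbour CDKN2B encodes p15INK4B, and MCF10A cells are known to have lost this locus on the short arm of chromosome 9. The 2 CDKN2A probes did not read alike. The one designed to NM_058197 was well above background on all 8 arrays, reading -1.93, -1.87, -1.70 and -1.40 in p53+/+ cells over the 4 times, against -1.74, -2.19, -1.93 and -1.87 in p53-/- cells. The one designed to NM_000077 was not well above background on any. The first probe differed by 0.34 between genotypes (SE 0.21, limma adjusted p = 0.29), and the sign turned without scaling of the arrays (-0.25). The treated arrays did not overlap, but the gap of 0.004 was within its technical SD of 0.10. The whole range of this probe was 1.73-fold, the smallest of the 6 genes measured. Which transcript this probe reads was not tested, as no probe sequences were used here.

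CDKN2B was not well above background on any of the 8 arrays, so only an upper bound exists and no test was made. The genes around it were read the same way. CDKN2B-AS1, an antisense RNA of this locus, had 0 of 3 probes above background on any array. MTAP, the next gene on the other side of CDKN2A and a methylthioadenosine-processing enzyme, had 1 of 3 probes above background on 1 array. Farther out, KLHL9, FOCAD and HAUS6 on one side and TUSC1 and CAAP1 on the other were well above background on all 8 arrays. PLIN2 and IFNB1, also outside, were not on any array, IFNE was on 3, DMRTA1 on 5 and ELAVL2 on 4, and of the 2 MLLT3 probes 1 was on 7 and the other on none. Of the 10 neighbours tested for genotype, HAUS6 was called lower in p53+/+ cells, near the 7.4% of all probes, and 9 were not called.

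**Figure D3:**
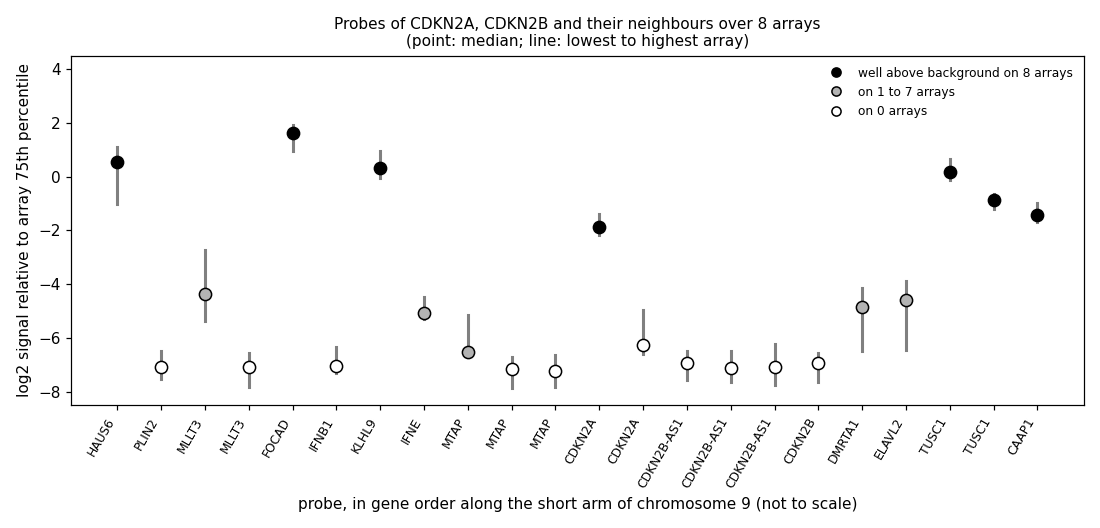
Log2 level (y axis, relative to the 75th percentile of the array) of the probes of CDKN2A, CDKN2B and neighbouring genes in their order along the short arm of chromosome 9 (x axis, not to scale). Points are medians over the 8 arrays and lines run from the lowest to the highest array, with black for probes well above background on all 8 arrays, grey for 1 to 7 and white for none. From MTAP to CDKN2B a single probe, the CDKN2A probe designed to NM_058197, is black.

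Counted by time point, CDKN1A, CDKN1C and CDKN2C were the genes that changed at least 2-fold from the 0 h array of the same label. In p53+/+ cells, against the array of the same label, CDKN1A was higher at all 3 times (12.2, 14 and 17.4% of all probes at 12, 24 and 48 h), CDKN1C was lower at all 3 (9.98, 13.8 and 11.6%), and CDKN2C was lower at 24 and 48 h. In p53-/- cells CDKN1A was higher at all 3 times (4.21, 8.58 and 12.7% of all probes), CDKN1C was higher at 24 and 48 h, and none was lower (5.7, 5.24 and 7.59%). With p53-/- 0 h as the baseline of p53+/+ cells, CDKN2C at 12 h and CDKN2D at all 3 times also passed the rule. At 0 h the 2 arrays differed at least 2-fold for 3 genes, of which CDKN1A read higher (4.88% of all probes) and CDKN1C and CDKN2D lower (5.26%) on the one labelled p53+/+.

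Whether the response to ADR differed between genotypes was tested as an interaction over all 8 arrays, which uses the array labelled p53+/+ 0 h. Each untreated arm is 1 array, so the spread comes only from the movement of the treated arrays over time. None of the 6 genes passed, where 1.69% of all probes did. CDKN1A gave 1.48 (SE 0.39, limma adjusted p = 0.13, unadjusted p = 0.0077) and passed with normexp background correction (adjusted p = 0.022). CDKN1C gave -2.51 (SE 1.37, adjusted p = 0.41) and CDKN2C -2.11 (SE 1.49, adjusted p = 0.52), and the unadjusted p was under 0.05 for CDKN1A alone.

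Of 11 tested genes of the kinases and cyclins that these inhibitors act on, 1 was called higher in p53+/+ cells after ADR, 4 lower and 6 neither, where 10.6% of all probes were called higher and 7.4% lower, with a median difference of -1.80 beside 0.09 over all probes. CCND2, a D-type cyclin, was not well above background on any p53-/- array or on the one labelled p53+/+ 0 h, and was at least 130-fold higher on treated p53+/+ arrays. It is the 1 gene called higher, and it entered the fit only through the arrays on which it is high, so its call is no support. Its levels there were 1.42, 0.92 and 1.93 at 12, 24 and 48 h. CCNA2, the cyclin of S and G2 phase, differed by -3.47 (SE 0.86, adjusted p = 0.037). CDK2, CDK4 and CCNE1 were the other 3 called lower, by -1.80, -1.64 and -2.69. CCNB2 and CDK1, which act in mitosis, were measured at -3.36 (adjusted p = 0.14) and -2.88 (adjusted p = 0.18) and were not called, their difference at 48 h reaching -7.44 and -6.33. In bulk RNA, fewer cycling cells and less RNA per cell cannot be told apart.

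Of the 7 pocket protein and E2F genes, 1 was called higher, 3 lower and 3 neither, beside the same 10.6 and 7.4% of all probes, with a median of -1.14. E2F2 differed by -6.32 (SE 1.28, adjusted p = 0.020), E2F1 by -4.79 (SE 1.31, adjusted p = 0.0499) and E2F3 by -1.38 (SE 0.18, adjusted p = 0.0052). E2F2 and E2F1 were not well above background on the p53+/+ 48 h array, so these values use dim signals. With signals floored at the lowest level well above background on each array the differences were -5.87 (adjusted p = 0.0039) and -4.12 (adjusted p = 0.0078), and without the 48 h arrays -4.75 (adjusted p = 0.016) and -3.43 (adjusted p = 0.035). Neither was called without the 24 h arrays (adjusted p = 0.17 and 0.24), nor E2F1 without the 12 h arrays (0.067). RBL2, a pocket protein of resting cells, was 1.09 higher (adjusted p = 0.019). RB1 itself differed by 0.49 (adjusted p = 0.10) and its relative RBL1 by -1.14 (adjusted p = 0.14). CDK1, CCNA2, CCNB2, E2F1 and E2F2 shared with CDKN1C, CDKN2C and CDKN2D a lowest level on the p53+/+ 48 h array. On that array no spike-in transcript was well above background.

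Among 23 genes known to act on CDK inhibitor genes or proteins, 0 were called higher, 5 lower and 18 neither, again beside 10.6 and 7.4% of all probes, with a median of -0.46. DTL, which guides p21 to degradation at replicating DNA, differed by -3.84 (SE 1.499, adjusted p = 0.13) and was not called. SKP2, which marks p27 and p21 for degradation, was called lower at -1.83 (SE 0.33, adjusted p = 0.014), and CKS1B, its cofactor, was measured at -1.59 (adjusted p = 0.086). EZH2, the histone methyltransferase that represses the INK4 locus and CDKN1C, was called lower at -1.55 (SE 0.38, adjusted p = 0.035), with levels of 1.01, 1.15 and -0.13 on treated p53+/+ and 2.33, 2.46 and 1.91 on treated p53-/- arrays. The other 3 called lower were ETS2, BMI1 and JUNB. These 3 were named after their values were seen, as were CDK2, CDK4, CCNE1, RBL1, RBL2 and RB1.

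**Figure D4:**
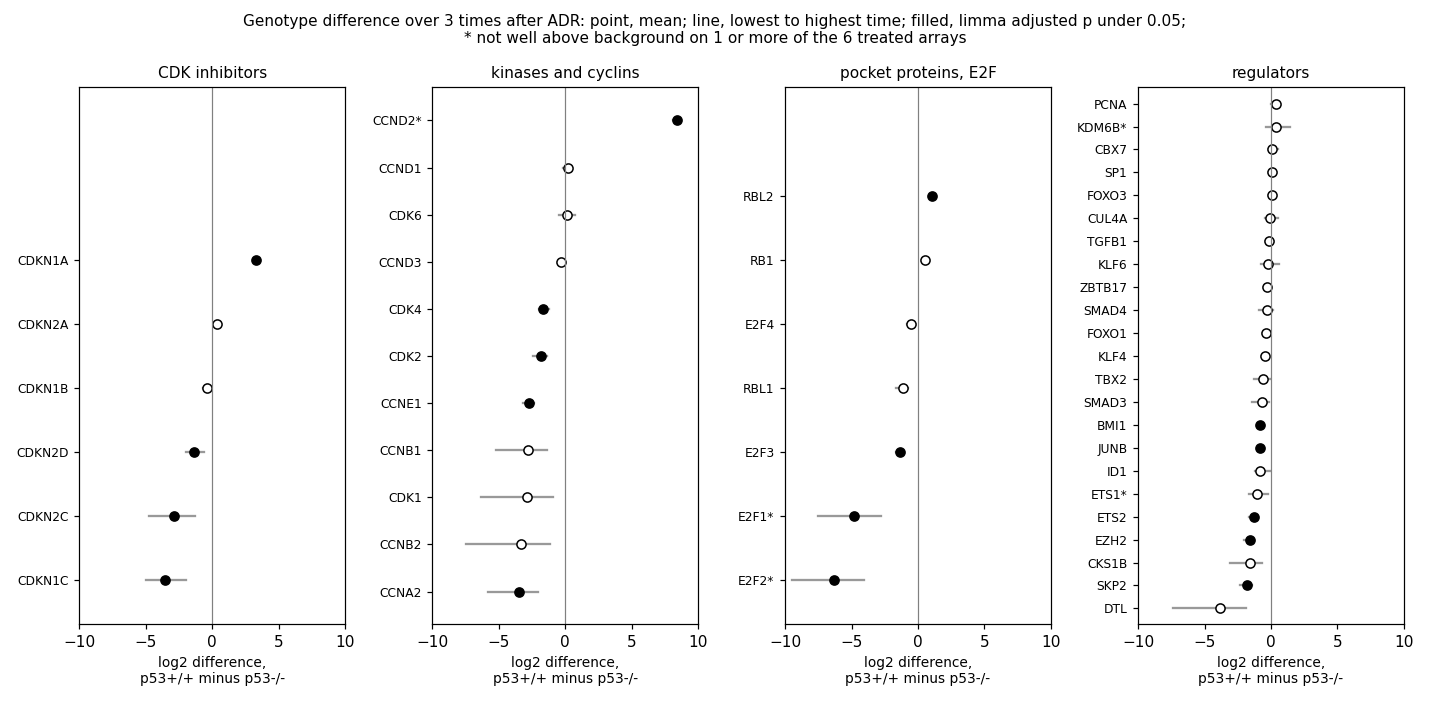
Log2 difference between p53+/+ and p53-/- cells after ADR (x axis) for the CDK inhibitors, their kinases and cyclins, the pocket proteins and E2F factors, and genes known to act on CDK inhibitors (y axis, sorted). Points are means of 12, 24 and 48 h, filled where the limma adjusted p is under 0.05, grey lines run from the lowest to the highest time point, and stars mark genes not well above background on some treated array, among them CCND2, plotted at its measured value. The CDK inhibitors run from -3.57 for CDKN1C to 3.31 for CDKN1A, and the cyclins of S phase and mitosis lie below 0 with lines that reach far lower.

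Patterns over the 8 arrays were compared among 6765 genes that were well above background on every array and ranged at least 2-fold. Among the closest to CDKN1A were SFN, which encodes 14-3-3 sigma (Pearson r = 0.990), and TRIM26 (0.990). RHEBL1 (0.978), SAE1 (0.977) and PAPLN (0.975) came closest to CDKN1C. For CDKN2C they were PRIMPOL (0.989), CCDC34 (0.988) and STIL (0.988), and for CDKN2D CEP192 (0.989), EVI2A (0.971) and HOXC6 (0.970). Among the CDK inhibitors themselves, CDKN1C and CDKN2D had r = 0.966, CDKN1C and CDKN2C 0.923, and CDKN2C and CDKN2D 0.880, while CDKN1A had -0.759, -0.752 and -0.722 with CDKN1C, CDKN2C and CDKN2D. The 8 points are the same arrays for every pair and fall into the 2 genotypes, so these values are a description and carry no p.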

How the data were processed

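RNA of 8 MCF10A samples was measured on single-colour Agilent arrays (design 028004, hg19), 1 per genotype and time. The authors deposited the output of Agilent Feature Extraction 10.7.3.1 for each array, of which the processed signal, an intensity after background correction and with no normalization between arrays, was used. The deposited value table of the series holds the same 503808 values within a relative tolerance of 1e-05. It was not normalized further by the authors as far as the sources used here say.

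Samples were grouped by the genotype and time in their labels. Of 62976 spots per array, control spots and spots marked as uneven or outliers were left out, and log2 signals minus the log2 75th percentile of the array (661 to 1199 in signal units) were averaged over the spots of a probe. Of 42391 probes, 27223 (64.2%) were named through the RefSeq gene table of GRCh38.p14, giving 20292 genes. As the array was designed on hg19, no array coordinates are given. Between 49.8 and 62.9% of probes were well above background per array, and no spot was saturated.

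Probes marked well above background somewhere among the 8 arrays (28947) entered limma (lmFit, eBayes) with genotype over the 6 treated arrays, with 4 residual degrees of freedom, and with the interaction of genotype and treatment over 8 arrays. Benjamini-Hochberg adjusted p under 0.05 was the threshold over all probes. The genotype fit was tested on simulated data, with 100 probes changed by 1 and 100 by 2 on the log2 scale. It recovered 1% and 40% of them, with 2 false calls. Far fewer probes were changed there than the 5201 called in the data, and the adjusted p depends on that number. These shares therefore do not measure how many differences of these sizes the fit finds in the data. A gene that was not called may still differ. Where a probe was above background on no treated array of 1 genotype, a fold is a lower bound against the lowest signal well above background. The CDK inhibitor genes and the lists were chosen with earlier results of these data known. In each list at most 4 genes, those with the largest genotype difference, were to be named, and likeness was given for the 3 genes of highest r. Alternatives were quantile, median and no scaling, normexp with an offset of 50, a signal floor, the mean of a gene's probes, other filters and folds of 3 and 1.5, other baselines, time points left out or as a block, and, added after the data were seen, the fits without p53+/+ 48 h alone and with all 8 arrays under their labels. Promoter windows are RefSeq's. Some genes of the lists and of the likeness ranking are not reported here. The software was R 4.3.3 with limma 3.58.1, and Python 3.11.15 with pandas 2.3.3, numpy 2.4.6 and matplotlib 3.10.9.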

Additional observations from a re-analysis of the deposited data

Results flagged for a closer look

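CDKN2A, on the probe designed to NM_058197, had changes of opposite sign from 0 h in the 2 genotypes when each was set against the 0 h array of its own label. Its log2 changes were 0.06, 0.23 and 0.53 at 12, 24 and 48 h in p53+/+ cells, against the array of the same label, and -0.46, -0.20 and -0.14 in p53-/- cells. Against p53-/- 0 h the p53+/+ changes were -0.13, 0.04 and 0.34, so at 12 h both genotypes were then below 0, and the same-label change at 12 h was within its technical SD. The difference of the 2 responses was 0.54, which did not pass the test of the interaction (limma adjusted p = 0.56), a fit in which each untreated arm is 1 array. All changes were under 2-fold, the technical SDs ran from 0.10 to 0.13, and the p53+/+ baseline is the array that read closer to the p53-/- arrays. With 1 array per condition no array could be tested as an outlier of its group.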

How the results depend on the processing

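The genotype difference of each of the 6 CDK inhibitor genes kept its direction under all 14 alternatives, except that of CDKN2A, which turned to -0.25 without scaling. CDKN1A stayed past the threshold under 13 of the 14, and CDKN1C, CDKN2C and CDKN2D under 11, 10 and 9. The number of these genes called over the treated arrays, 4 as reported, was 2 with the time point as a block, 0 with all 8 arrays under their labels (7 probes in all), and 1 to 3 when time points or the p53+/+ 48 h array were left out. All probes called numbered 5201, and 9393 without scaling, 9894 with normexp, 9478 with a signal floor, 12536 with no filter on dim probes and 292 to 4377 with time points or that array left out, the lowest without the 24 h arrays. The interaction was called for 488 probes, and for 1296 without scaling, 1251 with normexp, 914 with a signal floor, 60 with the time point as a block and 0 to 42 with a time point left out. It was called for 1 CDK inhibitor gene with normexp, CDKN1A. Its sign turned without scaling for CDKN1B (-0.60) and CDKN2A (-0.27), and that of CDKN2D ran from -0.66 to 0.025 with a time point left out. Genes past the size rule numbered 4 instead of 2 at 12 h in p53+/+ cells with p53-/- 0 h as the baseline. In p53-/- cells at 48 h they were 1 instead of 2 with median scaling. The 3-fold rule left 1 at 24 h in p53+/+ cells, 1 at 24 h and 1 at 48 h in p53-/- cells and 1 between the 0 h arrays, the last also without scaling (1), and the 1.5-fold rule gave 3 at 12 h in p53-/- cells and 5 between the 0 h arrays. Leaving arrays out reduces the samples, and the cause of the other shifts was not tested. The labels give no replicate numbers, and the fit with the time point as a block is the paired analysis of the genotypes by time. Signal over background limits CDKN2B, 1 CDKN2A probe, CCND2 in p53-/- cells, and E2F1 and E2F2 at 48 h in p53+/+ cells. It also limits PECAM1 and COL1A1 in treated p53+/+ cells.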
